A study of Caenorhabditis elegans with 2 samples.

Results

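The nuclear hormone receptor genes of Caenorhabditis elegans were taken as every protein-coding gene whose symbol begins with nhr-, in the Ensembl gene models of assembly WBcel235. This gave 269 of 19973 nuclear protein-coding genes. Of these, 11 belong to receptor families shared with other animal phyla and are called conserved receptors here, namely nhr-6, nhr-8, nhr-23, nhr-25, nhr-41, nhr-48, nhr-67, nhr-85, nhr-91, nhr-111 and nhr-239. The other 258 form the expanded worm group. Chromatin immunoprecipitation with sequencing (ChIP-seq) had been used to map one conserved receptor, NHR-6, in 2 biological replicates, and the question here was where its peaks lay among the genes of its own family. Whole L2 larvae of strain OP90, both sexes together, carried the transgene wgIs90, which encodes NHR-6 joined to eGFP, in an unc-119(ed3) mutant background. Both replicates shared this genotype and stage, and the background of an input or mock precipitation was not analysed here. What drives the transgene's expression is not stated in the labels.

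Nuclear hormone receptors are transcription factors with a zinc-finger DNA-binding domain and a ligand-binding domain. Some are switched by steroids, fatty acids or other small lipophilic molecules, and many have no known ligand. In worms the NR4A group is represented by NHR-6. Receptors of this group can bind DNA as a monomer at an extended half-site, AAAGGTCA. The worm family is far larger than that of insects or vertebrates, chiefly through duplication of receptors related to HNF4, and many of the duplicates lie in clusters on chromosome V.

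A gene is called bound where the summit of a peak in the authors' optimal set fell in a promoter window. The window reached 1000 bp upstream and 200 bp downstream of an annotated 5′ end. The authors derived the set by the irreproducible discovery rate, but a peak in it need not rank high in both replicates. By this rule 17 of the 269 receptor genes were bound (6.32%, 95% exact interval 3.72 to 9.93%), against 5.93% of all protein-coding genes. The 17 genes held 18 of the 1662 optimal peaks, 2 of them at nhr-49. Among conserved receptors 1 of 11 was bound (9.09%, interval 0.230 to 41.3%), and among the expanded group 16 of 258 were bound (6.20%, interval 3.59 to 9.88%). The wide interval of the conserved share contains that of the expanded group and the share of all genes. Intervals cover counting error only, and no test was made between these lists.

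The sequence 50 bp to each side of every summit was read to see which sequences lay under these peaks. Neither AAAGGTCA nor the shorter half-site AGGTCA, searched on both strands, was found in any of the 18 windows, and neither was found when the windows were widened to 100 bp on each side. Among all 1662 optimal peaks, 0.481% of the narrower windows held AAAGGTCA and 2.89% held AGGTCA, so few windows of any gene held them. A count of 0 among 18 windows allows a share of up to 18.5% (95% exact limit). Repeated pyrimidine tracts were more frequent. The letters TCTCTC, which read GAGAGA on the other strand, were present in 10 of 18 receptor windows (55.6%, interval 30.8 to 78.5%), in 29.2% of the 928 optimal peaks that lie in promoter windows and in 33.2% of all optimal peaks. Windows centred 250 bp to the right held the tract in 1 of 18 cases at receptor genes and in 7.65% of cases over all 928 promoter peaks. The palindrome CACGTG was present in 3 of 18 receptor windows (16.7%, interval 3.58 to 41.4%) and in 5.93% of the promoter peaks, a share that this interval contains. Both of these motifs were chosen after the sequences had been seen, and a match is a description and not a known site.

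Of the windows with a tract, 5 are shown, followed by the 3 with CACGTG and the window of nhr-48, the sole bound conserved receptor. Each comes from the RefSeq copy of assembly WBcel235 (ce11) and is written 5′ to 3′ on the strand of the gene, with the tract and the palindrome in capitals.
nhr-40 (chrX:2598994-2599094, plus strand): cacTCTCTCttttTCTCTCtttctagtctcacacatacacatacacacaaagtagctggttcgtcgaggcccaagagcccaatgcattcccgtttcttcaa
nhr-1 (chrX:17513672-17513772, plus strand): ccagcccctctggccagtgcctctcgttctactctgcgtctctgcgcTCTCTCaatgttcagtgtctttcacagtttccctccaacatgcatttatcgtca
nhr-21 (chrII:7339168-7339268, plus strand): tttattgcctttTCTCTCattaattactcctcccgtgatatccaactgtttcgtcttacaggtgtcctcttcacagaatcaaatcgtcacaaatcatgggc
nhr-119 (chrII:2800964-2801064, minus strand): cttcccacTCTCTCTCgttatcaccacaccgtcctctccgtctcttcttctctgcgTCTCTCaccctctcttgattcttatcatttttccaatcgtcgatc
nhr-35 (chrX:4532186-4532286, plus strand): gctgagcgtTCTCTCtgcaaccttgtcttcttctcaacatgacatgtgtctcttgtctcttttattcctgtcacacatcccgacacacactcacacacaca
nhr-68 (chrV:11572904-11573004, plus strand): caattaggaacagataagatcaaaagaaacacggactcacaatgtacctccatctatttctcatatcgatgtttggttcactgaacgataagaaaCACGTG
nhr-32 (chrX:13251537-13251637, plus strand): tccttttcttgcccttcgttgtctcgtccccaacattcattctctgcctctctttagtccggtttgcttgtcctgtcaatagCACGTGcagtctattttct
nhr-87 (chrIV:1623849-1623949, plus strand): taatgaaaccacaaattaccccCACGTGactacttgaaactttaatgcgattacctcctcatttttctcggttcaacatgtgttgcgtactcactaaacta
nhr-48 (chrX:15707495-15707595, plus strand): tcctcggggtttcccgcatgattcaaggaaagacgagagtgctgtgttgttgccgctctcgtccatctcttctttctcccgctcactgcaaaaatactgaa

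At these receptor peaks the tract mostly ran one way relative to the genes. In 9 of the 10 windows that had it, TCTCTC stood on the strand of the receptor gene, and the GAGAGA form stood there in 1, at nhr-47. Both windows of nhr-49 are among the 9. The strand of the tract is not given for the other promoter peaks, so this order is not shown to be particular to receptors. Base composition at receptor peaks was like that of other promoter peaks, with 45.5% G and C on average at the 18 summits and 45.4% over all 928. The windows 250 bp away held 35.9% at receptor genes and 35.1% at all promoter peaks. Across the whole promoter window of each gene's outermost 5′ end, AAAGGTCA occurred in 1 of 17 bound receptor genes, nhr-1, and in 7 of 252 that were not bound (2.78%). It occurred in 3.63% of all bound genes and in 3.88% of all protein-coding genes.

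The bound receptors with known roles in fat and energy metabolism included the highest promoter peak of the family. Of 10 receptors of this kind, 3 were bound (30%, interval 6.67 to 65.2%), nhr-49, nhr-68 and nhr-62, against 5.93% of all genes. Each replicate alone also called 3 of them, with nhr-114 in place of nhr-68 in replicate 2, and both together called 2 (20%, interval 2.52 to 55.6%), against 3.74% of all genes. The list was chosen with earlier results of these data known. With the nearest 5′ end only, nhr-68 was lost. With the 500 bp window, and with 1 outermost 5′ end per gene, nhr-62 was lost. nhr-49, a regulator of fatty acid desaturation and beta-oxidation, had an intergenic peak at 9869169 to 9869512 on chromosome I, with its summit 310 bp upstream of the first 5′ end. It had an authors' signal of 145.5 pooled, 116.8 in replicate 1 and 29.7 in replicate 2, at rank 220, 207 and 457 of 30000 in these lists. This was the best rank of any receptor promoter in each of the 3 lists. A second peak of nhr-49 lay within the gene, 110 bp upstream of an internal 5′ end, with a signal of 58.4 pooled (rank 1380), 45.1 in replicate 1 (rank 1344) and 10.7 in replicate 2 (rank 6173). The scale of the signal is not stated and its range differs between lists, so ranks within a list are compared here.

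The other bound metabolic receptors differed in how the replicates ranked them. nhr-68, which acts in the propionate breakdown pathway, had a signal of 98.9 pooled (rank 500), 91.6 in replicate 1 (rank 323) and 9.87 in replicate 2 (rank 7743). Its summit (V, 11572954) lay 486 bp upstream of the 5′ end, in a coding exon of the neighbour H12C20.7, whose window also held it. nhr-62, needed for the long life of worms on a restricted diet, had a signal of 65.8 pooled (rank 1107), 41.6 in replicate 1 (rank 1554) and 22.5 in replicate 2 (rank 832). That peak was in an intron, 963 bp upstream of the last of 3 annotated 5′ ends. Thus nhr-68 ranked high in replicate 1 only, while nhr-62 was the sole one of the 18 optimal receptor promoter peaks that ranked higher in replicate 2 than in replicate 1. Among the 7 metabolic receptors that were not bound, nhr-114, which protects worms on some bacterial diets, had its best pooled peak at rank 2285 and was ranked 3797 in replicate 1 and 1529 in replicate 2. nhr-80, a regulator of fatty acid desaturation, had pooled rank 16639 and rank 2222 in replicate 2. nhr-76 had no relaxed peak in any list.

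Of 6 receptors linked to foreign compounds, low oxygen or pathogens, 1 was bound (16.7%, interval 0.421 to 64.1%), and the interval contains the 5.93% of all genes. nhr-57, a gene induced in hypoxia by HIF-1, had a peak 205 bp upstream of its 5′ end (V, summit 4131684) with a signal of 92.5 pooled (rank 572), 79.3 in replicate 1 (rank 441) and 12.4 in replicate 2 (rank 3961). None of the other 5 was called from either replicate. nhr-86, a receptor of a bacterial metabolite, had its best promoter peak at pooled rank 5682, and at rank 11107 in replicate 1 and 3749 in replicate 2, where it stood above nhr-57. nhr-8 had pooled rank 10322 and rank 3609 in replicate 1. In the pooled list nhr-45 ranked 9153 and nhr-14 ranked 9231, and nhr-176 had no peak in any list.

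Several of the highest promoter peaks were at X-linked receptors. nhr-40, which acts in muscle development, had a peak in an intron, 364 bp upstream of its later 5′ end (X, summit 2599044), with a signal of 109.1 pooled (rank 404), 86.4 in replicate 1 (rank 372) and 17.7 in replicate 2 (rank 1457). nhr-1 had an intergenic peak 341 bp upstream of its first 5′ end (X, summit 17513722), with a signal of 107.6 pooled (rank 421), 87.3 in replicate 1 (rank 363) and 19.4 in replicate 2 (rank 1166). nhr-32 had a signal of 92.5 pooled (rank 571), 81.7 in replicate 1 (rank 425) and 15.02 in replicate 2 (rank 2248). The first pair were among the 1662 highest peaks of both replicates, and nhr-32 was not. nhr-35 (68.7 pooled, rank 1012) and nhr-3 (60.3 pooled, rank 1296) ranked 947 and 934 in replicate 1 and 5751 and 10726 in replicate 2. The last X-linked gene was nhr-48.

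Autosomal members without an assigned list made up the rest. nhr-21 (II, summit 7339218) had its summit 11 bp upstream of the first of 6 annotated 5′ ends, with a signal of 96.7 pooled (rank 522), 73.5 in replicate 1 (rank 512) and 26.9 in replicate 2 (rank 561), the closest match of ranks among the 18 peaks. At nhr-47 (V, summit 5505253) the summit coincided with the 5′ end, in an untranslated exon, and the window of dnj-19, which encodes a DnaJ-type co-chaperone, held it too, as did the non-coding gene C24G6.10. nhr-47 had a signal of 81.3 pooled (rank 742), 66.9 in replicate 1 (rank 619) and 10.6 in replicate 2 (rank 6340). nhr-119, nhr-87, nhr-142, nhr-58 and nhr-256 had pooled signals from 56.0 to 71.7, at ranks 945 to 1475. Their peaks ranked 838 to 1339 in replicate 1. In replicate 2 the ranks of 4 of them were 3053 to 8122, and nhr-87 had no peak within 200 bp. The nhr-142 summit was shared with F44E7.9. In all, 3 of the 18 receptor peaks were also in the window of another protein-coding gene.

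The replicates ranked these peaks differently. All 18 peaks had a counterpart within 200 bp in replicate 1 and 17 had one in replicate 2. In replicate 1, 17 of 18 were among the 1662 highest peaks (94.4%), and in replicate 2 only 5 were (27.8%), those of nhr-49 (first peak), nhr-40, nhr-1, nhr-21 and nhr-62. Of all 928 optimal promoter peaks, 86.9% were among the highest of replicate 1 and 68.8% among those of replicate 2. A q-value of 0.01 or less was reached by all 18 peaks in replicate 1 and by 7 in replicate 2. Over the 17 peaks found in both, the signals had a Spearman rho of 0.19, a description over peaks from the same pair of libraries. For the q-value counts and the rho no value over all 928 promoter peaks is given here. Neither is therefore shown to be particular to receptor peaks.

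**Figure D1:**
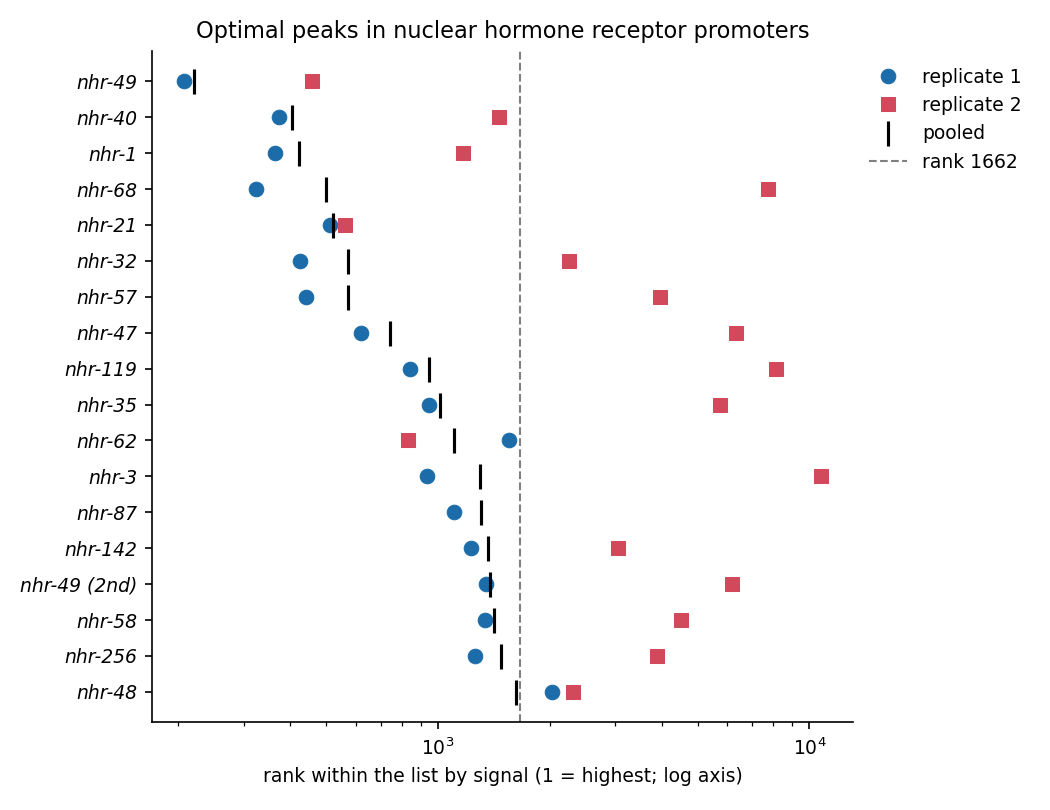
Rank of each optimal receptor promoter peak in the relaxed list of replicate 1 (circles), of replicate 2 (squares) and of both pooled (bars), on a log axis where 1 is the highest peak and the dashed line is rank 1662. In replicate 1, 17 of 18 peaks lie left of the line and in replicate 2, 5 do; nhr-87 has no replicate 2 peak.

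Counting genes from 1 replicate alone gave partly different members. With the 1662 highest peaks of replicate 1, 18 receptor genes were called (6.69%), against 5.66% of all genes, and 16 of the 18 were among the 17 bound genes. With those of replicate 2, 12 were called (4.46%), against 5.95% of all genes, and 5 of the 12 were among the bound ones. The 7 that only replicate 2 added were nhr-17, nhr-34, nhr-95, nhr-97, nhr-114, nhr-135 and nhr-158. Where both replicates were required, 5 receptor genes were called (1.86%, interval 0.606 to 4.28%), against 3.74% of all genes.

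Of the conserved receptors, nhr-48 alone had a promoter peak in the optimal set, near its lower end. nhr-48, of the same group as nhr-8 and daf-12, had its summit 668 bp upstream of the first 5′ end (X, 15707545), with a signal of 53.3 pooled, 36.3 in replicate 1 and 14.9 in replicate 2. It ranked 1618, 2033 and 2303 in these lists, so it was in neither replicate's 1662 highest. The replicate 1 summit was 143 bp from the pooled one. The lowest signal in the optimal set was 52.6. Just below the set came nhr-23, a ROR-type receptor that drives molting, with a pooled signal of 50.4 at rank 1765. Its best peaks ranked 1501 in replicate 1 and 2473 in replicate 2. Their summits were different sites, at 7213833 in replicate 1 and 7216430 in replicate 2 (I).

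Further conserved members ranked lower. nhr-85, a relative of Rev-erb and E75 that acts in developmental timing, had a best pooled rank of 3840, with ranks of 3323 in replicate 1 and 19307 in replicate 2. nhr-25, the worm NR5A receptor of epidermal and gonad development, had a pooled rank of 8782, and ranks of 9988 and 6094 in replicates 1 and 2. nhr-41 had a pooled rank of 11868, and ranks of 7191 and 6601. nhr-8, which acts in cholesterol and xenobiotic responses, had rank 3609 in replicate 1 and no peak in replicate 2, whereas nhr-239 (rank 11281) and nhr-111 (rank 26419) had peaks in replicate 2 alone. nhr-67, the tailless relative, nhr-91 and nhr-6 itself had no peak of any rank in the window.

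Relaxed peaks, which include weak candidates, reached many more receptor genes. In replicate 1, 127 of 269 had one in the promoter window (47.2%, interval 41.1 to 53.4%), against 40.0% of all protein-coding genes. In replicate 2, 125 had one (46.5%, interval 40.4 to 52.6%), against 41.2%. Both replicates had one at 80 genes (29.7%, interval 24.3 to 35.6%), against 24.9% of all genes. Limiting both lists to a q-value of 0.01 or less left 10 receptor genes (3.72%, interval 1.80 to 6.73%), against 5.41%. The median best rank of the receptor genes with a peak was 9988 in replicate 1 and 11029 in replicate 2, and over all genes with a peak it was 10551 and 10550. The receptor share was thus above that of all genes with weak candidates included and below it with the q-value limit. In replicate 1 the lower limit of the interval, 41.1%, lay just above the 40.0% of all genes. In replicate 2, in both together and with the q-value limit, the interval contained the share of all genes. Neighbouring receptors can share a summit, as nhr-94 and nhr-152 did in each relaxed list. Genes are therefore not independent counts, and no test was made.

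Conserved and expanded receptors were compared in the same lists. Both replicates had a relaxed peak at 5 of 11 conserved receptors (45.5%, interval 16.7 to 76.6%), nhr-23, nhr-25, nhr-41, nhr-48 and nhr-85, and at 75 of 258 expanded ones (29.1%, interval 23.6 to 35.02%), against 24.9% of all genes. A peak in each replicate need not be the same site. The best summits of both replicates lay within 200 bp of each other at 1 of the 5 conserved receptors, nhr-48, and at 44 of the 75 expanded ones. Counting any pair of summits within that distance left 4 conserved receptors (36.4%, interval 10.9 to 69.2%), all but nhr-41, and 55 expanded ones (21.3%, interval 16.5 to 26.8%), against 17.8% of all genes. With a q-value of 0.01 or less in both, 2 conserved receptors remained (18.2%, interval 2.28 to 51.8%), nhr-23 and nhr-48, and 8 expanded ones (3.10%, interval 1.35 to 6.02%). The median best rank of those with a peak was 3466 for 6 conserved receptors and 10311 for 121 expanded ones in replicate 1, and 6601 for 7 and 11158 for 118 in replicate 2. The intervals of the shares overlap in each case. Conserved receptors also had more annotated 5′ ends, 2.73 per gene on average against 1.56 in the expanded group, and so wider windows in total, 2302 bp against 1454 bp. The part of window size in these shares was not tested.

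**Figure D2:**
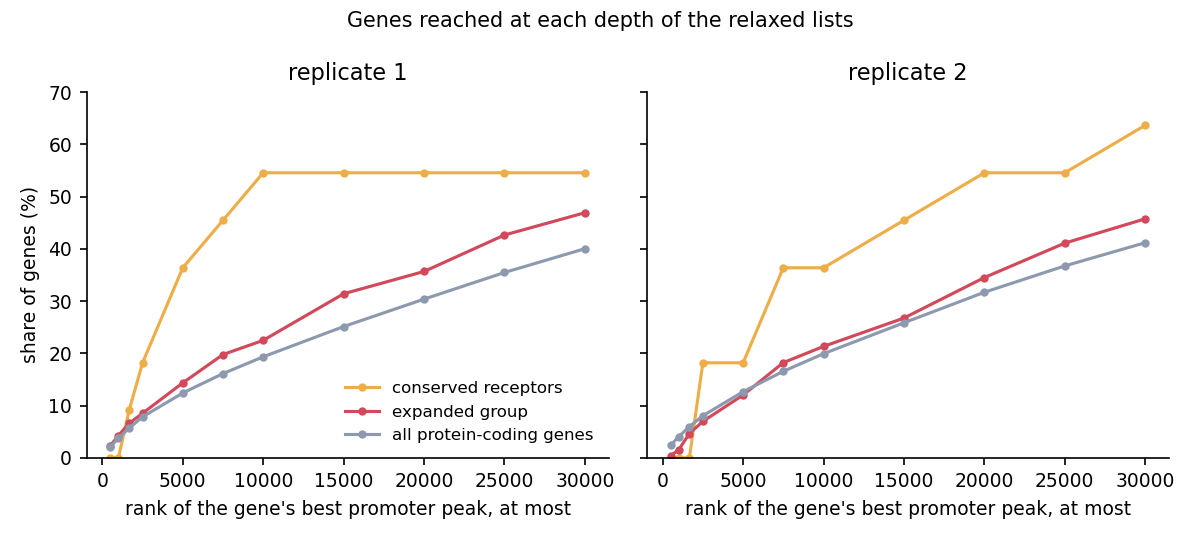
Share of conserved receptors (11 genes), expanded receptors (258) and all protein-coding genes (19973) whose best promoter peak has at most the rank on the x axis, in replicate 1 and in replicate 2. The expanded group ends at 46.9% and 45.7%, all genes at 40.0% and 41.2%, and the conserved receptors at 54.5% and 63.6%.

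The members just outside the optimal set gave the values on the other side of its limit. After nhr-23 came nhr-205 (pooled signal 49.5, rank 1828), nhr-19 (48.8, rank 1891), nhr-105 (48.6, rank 1916) and nhr-34 (45.2, rank 2187). The lowest receptor peaks inside the set, beside nhr-48, were at nhr-256 (56.0, rank 1475) and nhr-58 (57.5, rank 1415). In replicate 1, nhr-105 ranked 1288, between nhr-256 (1255) and nhr-58 (1339), and the other 3 ranked 1781 to 2378.

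Bound receptors were spread unevenly over the chromosomes. Chromosome V held 167 of the 269 receptor genes (62.1%), against 4994 of the 19973 protein-coding genes. Of these 167, 6 were bound (3.59%, interval 1.33 to 7.66%), against 3.02% of all genes of that chromosome. Of the 102 receptors on the other chromosomes, 11 were bound (10.8%, interval 5.51 to 18.5%), against 6.90% of all genes there. The X chromosome had 6 of 23 receptors bound (26.1%, interval 10.2 to 48.4%), against 6.70% of all X-linked genes. Chromosomes I and II had 2 bound receptors each, of 23 and 15 (8.70% and 13.3%), against 7.78% and 5.68% of all genes there. Chromosome IV had 1 of 33 (3.03%, against 5.79%) and chromosome III 0 of 8 (against 9.13%). On each of these chromosomes the receptor interval contains the share of all genes. On V replicate 2 alone called 4 receptors (2.40%, against 3.38%) and both together called 0 (interval 0 to 2.18%), against 1.96%. Off V both together called 5 (4.90%, against 4.33%). On X the count rested on replicate 1. It called 5 of the 23 (21.7%), against 6.52% of all X-linked genes, while replicate 2 called 3 (13.04%, interval 2.78 to 33.6%), against 5.16%, and both together called nhr-1 and nhr-40 (8.70%, interval 1.07 to 28.04%), against 3.52%. None of these differences was tested.

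**Figure D3:**
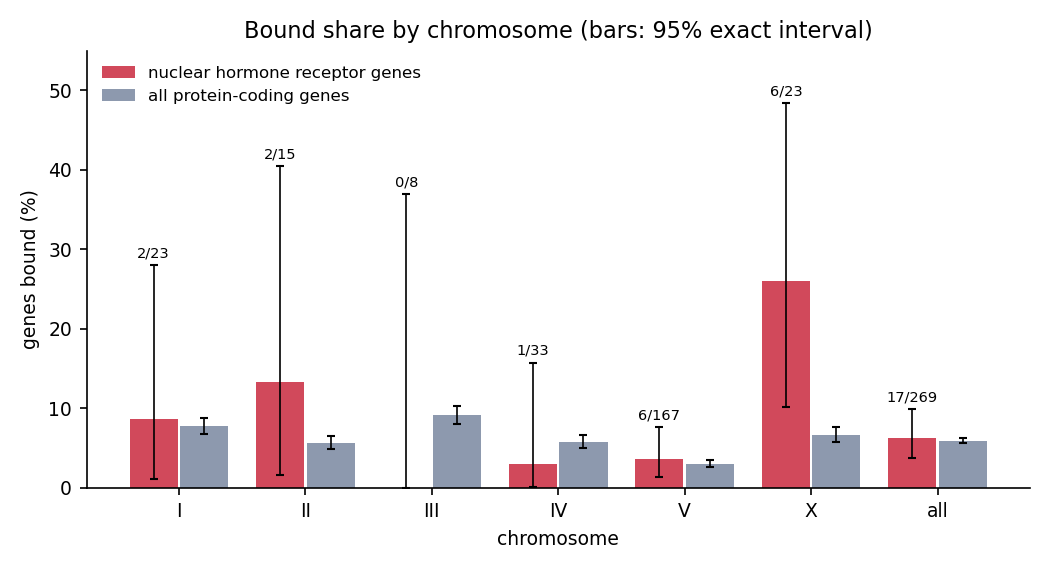
Percentage of nuclear hormone receptor genes (red, with bound over total counts) and of all protein-coding genes (grey) bound on each chromosome and on all, with 95% exact intervals. On X the receptor share is 26.1% against 6.70% of all genes (13.04% against 5.16% with the highest peaks of replicate 2 alone), and on V it is 3.59% against 3.02%.

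Fewer of the receptors that lie in clusters were bound, though less clearly so in replicate 2. By the order of 5′ ends, 136 members had another receptor gene as a direct neighbour, in 44 runs of 2 or more, and 133 had none. Of the clustered members 2 were bound (1.47%, interval 0.179 to 5.21%), nhr-58 and nhr-87, and of the solitary members 15 were bound (11.3%, interval 6.45 to 17.9%), against 5.93% of all genes. These intervals do not overlap, and the difference was not tested. The highest peaks of replicate 2 alone called 3 clustered members (2.21%, interval 0.457 to 6.31%) and 9 solitary ones (6.77%, interval 3.14 to 12.5%). Over all genes the share was 5.95%, which both of these overlapping intervals contain. With both replicates required, 0 clustered members (interval 0 to 2.68%) and 5 solitary ones (3.76%, interval 1.23 to 8.56%) were called. That call reached 3.74% of all genes. On chromosome V, 1 of 107 clustered receptors (0.935%, interval 0.0237 to 5.10%) and 5 of 60 solitary ones (8.33%, interval 2.76 to 18.4%) were bound, against 3.02% of all genes there, a share that both intervals contain. In replicate 2 the order on V was the reverse, with 3 clustered (2.80%) and 1 solitary receptor (1.67%) called, against 3.38% of all genes on V. The longest run, 9 genes from nhr-185 to nhr-124 (V, 3844429 to 3886204), held no bound member. With 3.02% of all genes on V bound, 9 genes are too few to show a low share. Replicate 2 alone called nhr-158 in this run, with its best peak at rank 1078. Of 338 genes of other families next to a receptor gene, 8 were bound (2.37%, interval 1.03 to 4.61%). This compares with 5.93% of all genes and 3.02% of those on V.

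Bound receptors were longer and had more 5′ ends than the rest. Bound members had 2.29 annotated 5′ ends on average and a median span of 4704 bp, against 1.56 and 2247 bp for those not bound. Among receptors with several 5′ ends, 10 of 95 were bound (10.5%), and among those with a single one 7 of 174 were (4.02%). The same held over all genes, with 9.14% and 4.79% bound. Replicate 2 alone called 10 of the 95 (10.5%) and 2 of the 174 (1.15%), partly other genes than the bound ones. Both replicates together called 5 of the 95 (5.26%) and 0 of the 174. For these replicate calls the shares of all genes by 5′ ends are not given here. The median distance upstream to the next protein-coding gene was 3390 bp for bound receptors, 1680.5 bp for those not bound, 764 bp for all bound genes and 1157 bp for all genes. Split by this distance, however, the shares were alike: 11 of 177 receptors with 1000 bp or more upstream were bound (6.21%) and 6 of 92 with less (6.52%). Over all genes the shares were 4.65% and 7.43%. No test was made.

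Within the windows, summits lay upstream of the 5′ ends. Of the 18 peaks, 17 were upstream and 1 was at position 0, with a median position of -325.5 bp, against -249 bp over all 1229 pairs of optimal peak and gene. Most were intergenic (13 of 18), 3 lay in introns before an internal 5′ end, 1 in a coding exon and 1 in an untranslated exon. At 15 peaks the nearest 5′ end was the first of its gene or lay within 200 bp of it.

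Strong peaks also lay inside receptor genes, outside the promoter windows. Optimal summits in the annotated span were found at 11 of 269 receptor genes (4.09%, interval 2.06 to 7.20%), against 1.95% of all protein-coding genes. Bound or with a summit in the span were 23 of the 269 (8.55%), against 6.87% of all protein-coding genes. Counting only summits outside the gene's own promoter windows, there were 12 peaks in 8 genes. All were in introns and none was in the promoter window of another protein-coding gene. The share of all genes under this narrower rule is not given here. Of the 8 genes 6 had no promoter peak in the optimal set, nhr-14, nhr-17, nhr-19, nhr-31, nhr-34 and nhr-46, and 2, nhr-3 and nhr-40, were bound as well. All 8 were of the expanded group, which holds 258 of the 269 receptor genes. Of the 11 conserved receptors 0 had an optimal summit in the span (interval 0 to 28.5%). The median span of the 8 genes was 7103 bp, against 2309 bp for all receptor genes and 2027 bp for all protein-coding genes. The part of gene length in the count of 8 was not tested.

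The highest peak at any receptor gene was of this kind. In an intron of nhr-19 (II, 9603411 to 9603754), 1667 bp downstream of the nearest 5′ end, the signal was 239.9 pooled, 167.0 in replicate 1 and 69.5 in replicate 2, at ranks 71, 89 and 49. This exceeds the first nhr-49 peak in each list. The same gene had 2 more intronic peaks, with pooled signals of 82.5 (rank 720) and 62.3 (rank 1220). Its highest window carries the tract at 2 places, shown in capitals on the gene's strand.
nhr-19 (chrII:9603533-9603633, minus strand): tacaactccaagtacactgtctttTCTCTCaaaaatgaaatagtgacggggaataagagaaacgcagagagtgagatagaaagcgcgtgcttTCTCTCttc
Of the 12 intronic windows, 4 had the tract (33.3%), close to the 33.2% of all optimal peaks. CACGTG was in 1 of them (8.33%), at nhr-34, against 5.84% of all optimal peaks. None had AAAGGTCA or AGGTCA, against 0.481% and 2.89% of all optimal peaks.

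Several other intronic peaks ranked above most receptor promoter peaks. nhr-14, a regulator of iron uptake, had a peak 805 bp downstream of its nearest 5′ end (X, summit 8475371) with a signal of 132.2 pooled (rank 265), 97.4 in replicate 1 (rank 288) and 37.5 in replicate 2 (rank 241). nhr-3 had one 1903 bp downstream with 124.8 pooled (rank 292), 89.7 in replicate 1 (rank 341) and 29.0 in replicate 2 (rank 483), above its own promoter peak in each list. nhr-34 had one at position -1003 bp of an internal 5′ end, just beyond the window, with 119.6 pooled (rank 325), 92.3 in replicate 1 (rank 318) and 25.8 in replicate 2 (rank 621). In replicate 2 this summit fell inside the window, at position -953 bp, which is why nhr-34 was called from that replicate alone. At nhr-46 the signal was 118.5 pooled (rank 332), 99.9 in replicate 1 (rank 273) and 22.1 in replicate 2 (rank 862). nhr-31, which acts in the excretory cell, had 94.7 pooled (rank 541), 965 bp downstream of a 5′ end and within 200 bp of the non-coding gene C26B2.12. The peak in nhr-17 (72.4 pooled, rank 921) lay within 200 bp of a tRNA gene, had rank 675 in replicate 1 and had no counterpart in replicate 2.

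The intronic peaks were high in both replicates. Of these 12 peaks, 11 were among the 1662 highest of replicate 1 and 11 among those of replicate 2 (91.7%), with 10 in both. For receptor promoter peaks the replicate 2 count was 5 of 18. Of all 734 optimal peaks outside promoter windows, 640 were among the highest of replicate 1, 437 of replicate 2 (59.5%) and 370 of both. The 12 peaks were few, and nhr-19, nhr-34 and nhr-40 each held more than 1 of them. All came from the optimal set, which equals the highest pooled peaks, and no test was made.

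**Figure D4:**
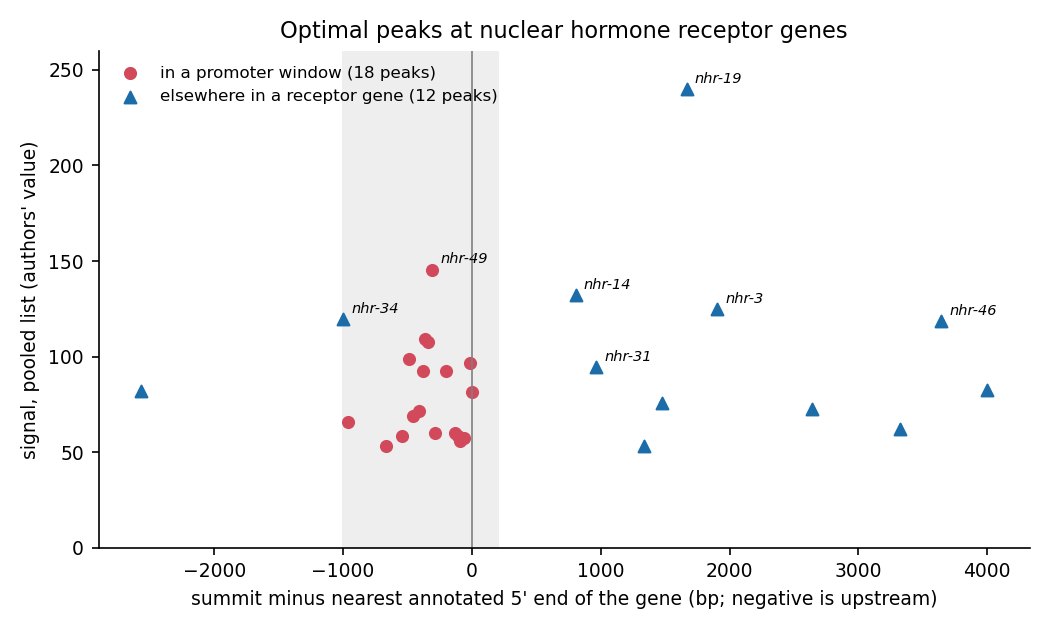
Pooled signal of the 18 optimal peaks in receptor promoter windows (red circles) and the 12 elsewhere within receptor genes (blue triangles), against the distance of the summit from the nearest annotated 5′ end of that gene, with the promoter window shaded. The highest point is the intronic nhr-19 peak at 239.9, and the highest promoter peak is nhr-49 at 145.5; the nhr-34 triangle at -1003 bp lies just outside the window.

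The gene of the tagged receptor lay in a stretch without any peak. nhr-6 (III, 3573581 to 3578771, plus strand) had no optimal or relaxed summit in its window or its span. The nearest pooled summits were 22266 bp before the gene and 31312 bp after it, a gap of 58768 bp. The gap was 59602 bp in replicate 1 and 58914 bp in replicate 2. These were the 8th, 8th and 7th longest of 29994 gaps between neighbouring summits in the 3 lists, whose median gaps were 1879.5, 1872 and 1913.5 bp. The gap in the pooled list also held C54C6.4 and C48D5.3. Whether the lists were filtered around the transgene's own sequence is not stated in the labels, so the lack of a peak is given here as a property of the lists.

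**Figure D5:**
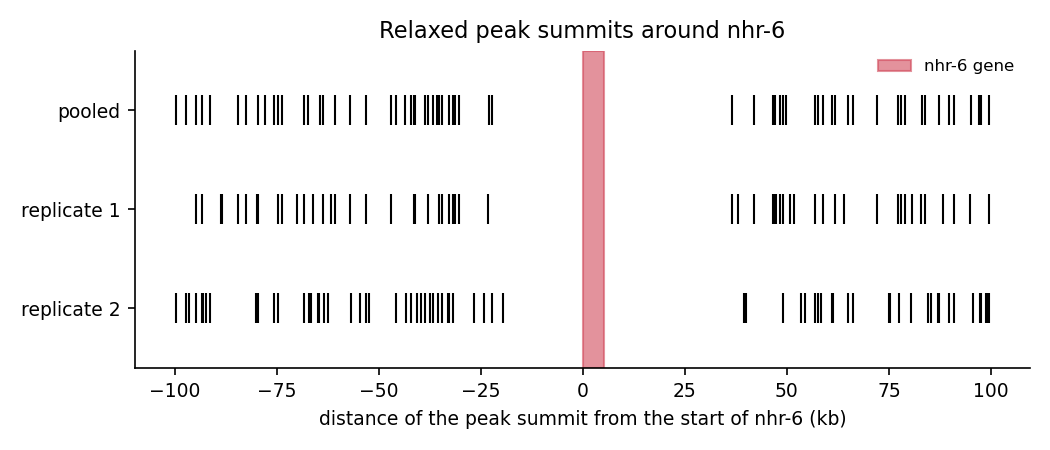
Summits of relaxed peaks (ticks) within 100 kb of the start of nhr-6 in the pooled list, replicate 1 and replicate 2, with the gene in red. No list has a summit between 19442 bp before the gene, the nearest in replicate 2, and 31312 bp after it, the nearest in the pooled list.

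Partners of nuclear receptors, which are not members, gave a further view of the pathway. Of 15 such genes, in a list chosen with earlier results of these data known, 4 were bound (26.7%, interval 7.79 to 55.1%), against 5.93% of all genes. Replicate 1 alone called 3, replicate 2 alone called 2 and both together called 1 (6.67%, interval 0.169 to 31.9%), against 3.74% of all genes. That gene was cbp-1, which encodes the CBP/p300 acetyltransferase coactivator and had the highest signal, 199.8 pooled (rank 109), with rank 77 in replicate 1 and 824 in replicate 2. dpy-22, a Mediator subunit gene, ranked 623 pooled, 442 in replicate 1 and 28449 in replicate 2. din-1, which encodes a corepressor of DAF-12, ranked 655 pooled, 458 in replicate 1 and 3735 in replicate 2, with a different summit in each list. strm-1, a sterol methyltransferase gene, ran the other way, with rank 1490 pooled, 4305 in replicate 1 and 260 in replicate 2. None of the 5 receptors with other symbols, daf-12, sex-1, unc-55, fax-1 and odr-7, was bound, and daf-12 had the best pooled rank of them, 6324. The Mediator gene mdt-15, a partner of NHR-49, had no pooled peak, and the enzymes of steroid hormone synthesis daf-9, daf-36, dhs-16 and hsd-1 were not bound.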

How the data were processed

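Peak lists on build ce11 were analysed, whose chromosomes fit those of the reference assembly WBcel235; all 24 pairs of list and chromosome ended inside it. Per the deposited file lists, the authors called 30000 relaxed peaks from each replicate and from both together, each time with 1 further file that is not described, and derived the optimal set of 1662 peaks by the irreproducible discovery rate. The deposited lists give a signal value and −log10 of the q-value per peak, both the authors'. Aligner, caller, versions and thresholds: not given in the sources used here. Read depth is unknown. The optimal set equals the 1662 highest pooled peaks.

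Gene models came from Ensembl release 115. Windows of every annotated 5′ end of protein-coding transcripts were searched for summits, and a summit could bind several genes. For a peak's value in a replicate, the highest relaxed peak within 200 bp was taken. Shares have 95% exact (Clopper-Pearson) intervals. No test was made, since both samples form 1 group. They are labelled biological replicates. The gene assignment was checked on summits placed at known positions. Members, lists and rules were chosen with earlier results of these data known. Named were all bound members, all conserved receptors, the 5 next below, genes sharing a summit and bound genes of 3 lists; the intronic peaks, the replicate 2 genes and some members that were not bound were named after their values were seen. Protein sequences and lists on ce10 were not used here. Software was Python 3.11.15, pandas 2.3.3 and scipy 1.17.1.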

Additional observations from a re-analysis of the deposited data

How the results depend on the processing

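The bound count of 17 receptor genes stayed within 1.5 times under 6 of 8 alternatives. With the window from 500 bp upstream it was 14 (5.20%, against 4.70% of all genes), and from 2000 bp it was 23 (8.55%, against 7.92%). With the nearest 5′ end only it was 15 (5.58%, against 4.47%). With 1 outermost 5′ end per gene, chosen after seeing the data, it was also 15 (5.58%, against 5.44%). It fell to 8 (2.97%, against 3.42%) with the 831 highest optimal peaks only. Where the highest peaks of both replicates were required it fell to 5 (1.86%, against 3.74%). The 16 expanded genes fell to 8 and 5 under the same settings. With a replicate left out the counts ran from 12 to 18 for all receptors, 0 to 1 for conserved and 12 to 17 for expanded ones. The single conserved gene was lost (0) with the 500 bp window, the 831 highest peaks and both replicates required; without replicate 2 it was nhr-23 in place of nhr-48. The cause was not tested. Adding daf-12, sex-1, unc-55 and fax-1 left 1 bound of 15. The 80 genes that had relaxed peaks in each replicate became 10 at a q-value of 0.01 or less (3.72%, against 5.41% of all genes). They became 59 with the 500 bp window (21.9%, against 16.7%) and 110 with the 2000 bp one (40.9%, against 37.4%). The splits by chromosome, cluster and 5′ ends, were recomputed with each replicate's highest peaks, and genes with nearby summits in both were counted; both were chosen after seeing the data and stand beside those results. The count of 0 windows with AAAGGTCA held in all settings run. An expanded group limited by zinc-finger pattern was not run, as no protein table was used. No paired analysis was possible because both samples form 1 group. Peak lists without read depth, and 11 conserved genes, limit what shares can show.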
